A study of Mus musculus with 9 samples.

Results

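Liver tissue of mice with acute liver injury caused by cisplatin (CPT) was compared with liver tissue of untreated mice (CON) by RNA sequencing. Cisplatin, a platinum drug that crosslinks DNA, was injected, per the series' design text, and all animals were male BALB/c mice with no labelled genetic change. The groups were taken from the library titles, and the 6 libraries compared, 3 a group, are part of a series of 9. The other 3 libraries, titled AT3, carry the same cisplatin treatment label. They entered the filter on low counts, the scaling and the estimate of the spread between libraries. Their values are given only for genes that were at 0 in a group. The dose, the route, the age of the animals and the time after injection are not stated in the labels. Whether replicates were separate animals is not stated either, so p-values measure only how far these libraries spread, which may be technical. Of 57010 genes in the deposited table, 13686 had enough counts to be tested. Described here are the genes of secreted proteins, the secretory pathway, translation and membrane transport, long non-coding and antisense RNA genes, and genes that were counted in 1 group and at 0 in the other.

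The hepatocyte, the main cell of the liver, makes most proteins of the blood plasma. Their messages are translated at the endoplasmic reticulum, where the signal recognition particle (SRP) and the translocon thread the growing chain through the membrane, signal peptidase trims it and oligosaccharyltransferase (OST) adds sugar chains. COPII-coated vesicles then carry the protein to the Golgi, and COPI-coated vesicles return escaped residents and cargo receptors. Solute carriers (SLC) and ATP-binding cassette (ABC) transporters move nutrients, bile acids, drugs and ions across the hepatocyte's membranes. Long non-coding RNAs are transcripts with no protein product, and an antisense RNA is transcribed from the strand opposite another gene.

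The libraries held 21485021 to 28480479 estimated counts each. Levels are given below as CPM, counts scaled to a common library total after TMM scaling on the bulk of genes. A gene was called at an adjusted p below 0.05 in edgeR's quasi-likelihood test, which gave all adjusted p below unless another tool is named. Some genes near 0 counts in 1 group passed the low-count filter only through libraries of other groups. Their calls, in either direction, describe that low level and enter the list counts. A value after ± is the SD of a level or share over 3 libraries, or the SE of a log2 fold change. Of all tested genes 60.8% were called, 30% higher and 30.8% lower in CPT, and the 3 CON and 3 CPT libraries did not overlap for 64.2%. These shares are the background for each count that follows. The median log2 fold change over all tested genes was -0.02. On the log2(TPM + 1) scale it was 0.29, with 6631 genes called higher (48.5% of those tested) and 1604 lower (11.7%). The count fit called 4107 higher and 4219 lower. Directions below are therefore relative to the bulk of genes. Transcripts of the mitochondrial genome took 31.7% ± 5.54 of the counts in CON and 13.5% ± 2.62 in CPT (mean ± SD, n = 3). The summed level of 14 hepatocyte markers was 89282 to 94553 CPM in CON and 84101 to 108924 CPM in CPT, but single markers moved. Of the 14, 6 were called higher and 4 lower, from Serpina1c, an antitrypsin gene (log2 fold change -2.85), to Fgb, a fibrinogen chain (2.39). In the same libraries 10 sinusoidal endothelial markers summed to 147 to 150.1 CPM in CON and 26.7 to 35.9 CPM in CPT. The sums were 354 to 425 and 71.8 to 82.2 CPM for 10 stellate cell markers. For 10 neutrophil markers they were 4.40 to 5.11 and 25.3 to 52.9 CPM. The sums of 9 erythroid markers were 799 to 909 and 43.3 to 51.6 CPM. Those of 10 Kupffer cell markers were 46 to 60.2 and 23.9 to 30.1 CPM, and those of 11 T, NK and B cell markers 16 to 17.5 and 5.19 to 7.97 CPM. Alas2, at 42, 40.4 and 44.9 CPM, made up most of the erythroid sum in CPT. Within these lists single markers differed too. Called lower were 8 of 10 endothelial, 10 of 10 stellate and 6 of 10 Kupffer cell markers, with 0, 0 and 1 higher. Of 7 tested erythroid markers 6 were lower and 1 higher, and of 7 tested neutrophil markers 6 were higher and 0 lower. In whole tissue, fewer cells of a type and less RNA per cell cannot be told apart. The part these cell types had in any result below was not tested.

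Genes of secreted proteins moved in both directions. Among 41 tested plasma carriers and binding proteins, 2 carriers of hormones had the largest rise and the largest fall. Serpina7, thyroxine-binding globulin, which carries thyroid hormone, measured 16.2, 20.2 and 22.4 CPM in the CON libraries and 354, 358 and 353 CPM in the CPT libraries. Serpina6, corticosteroid-binding globulin, which carries cortisol and corticosterone, measured 319.6, 329 and 282 CPM in the CON libraries and 26.7, 17.6 and 16.5 CPM in the CPT libraries. The groups did not overlap for either gene. Serpina7 was 18.1-fold higher in CPT (log2 fold change 4.18 ± 0.13, adjusted p = 3.03e-12) and Serpina6 was 15.3-fold lower (log2 fold change -3.94 ± 0.16, adjusted p = 2.58e-11). Ttr, transthyretin, another carrier of thyroid hormone, was lower on counts (log2 fold change -0.68 ± 0.12, adjusted p = 0.000141) but was not called on log2(TPM + 1) (limma adjusted p = 0.734). Among the binding proteins of insulin-like growth factors, Igfbp1, which is secreted in fasting and stress, measured 11.7, 12.5 and 11.9 CPM in the CON libraries and 68, 82.3 and 198 CPM in the CPT libraries. CPT_3 stood above the other CPT libraries, and all 3 stood above CON (log2 fold change 3.26 ± 0.30, adjusted p = 1.91e-07). Igfals, which holds the growth factor in a long-lived plasma complex, fell from 54.2, 53.5 and 49.8 CPM to 11.7, 11.3 and 11 CPM (log2 fold change -2.21 ± 0.12, adjusted p = 7.58e-10). Igf1, the growth factor itself, was lower by 1.62-fold on counts (log2 fold change -0.70 ± 0.12, adjusted p = 0.000112). Its mean TPM was 590 in CON and 618 in CPT. On log2(TPM + 1) Igf1 was 0.0629 higher and not called, below the median of 0.29 over all genes. Only the sign of its change depended on the scale. Igfbp7, a binding protein also made by vessel cells, measured 40.6, 38.8 and 32.3 CPM in CON and 5.72, 4.42 and 7 CPM in CPT.

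Of these 41 carriers and binding proteins, 25 were called higher, 8 lower and 8 were not called, with a median log2 fold change of 0.61 against -0.02 over all genes. Selenop, which carries selenium to other tissues, measured 387, 528 and 323 CPM in the CON libraries and 2675, 3040.4 and 3759.7 CPM in the CPT libraries (log2 fold change 2.94 ± 0.17, adjusted p = 1.26e-09). Hpx, hemopexin, which binds free heme, measured 2767, 2872 and 3208 CPM in CON and 16431, 18664 and 17804 CPM in CPT, and its groups lay 5.98-fold apart. Alb, albumin, the most abundant plasma protein, measured 38425, 41174 and 36073 CPM in the CON libraries and 38283, 30281 and 42967 CPM in the CPT libraries. The Alb libraries of both groups overlapped and the gene was not called (log2 fold change -0.05 ± 0.14, adjusted p = 0.755). On the log2(TPM + 1) scale Alb was higher in CPT by 0.54 (limma adjusted p = 0.0307).

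Of 53 tested hepatokines, proteins by which the liver signals to other organs, and other secreted signals, 15 were called higher, 26 lower and 12 were not called, with a median log2 fold change of -0.41. This median was 0.0668 on the log2(TPM + 1) scale, against 0.29 over all genes. Nrg4, a growth factor of the neuregulin family that acts on hepatocytes and fat, measured 1.41, 1.81 and 1.46 CPM in CON and 38.9, 33.9 and 43 CPM in CPT. The groups did not overlap (log2 fold change 4.60 ± 0.14, adjusted p = 1.71e-12). Fgl1, a fibrinogen-like protein secreted by hepatocytes, measured 164, 114 and 185 CPM in CON and 2278, 2343 and 1879 CPM in CPT (log2 fold change 3.81 ± 0.17, adjusted p = 6.31e-11). Inhbb, a subunit of activin B, had 0, 0.0785 and 0.113 CPM in CON and 1.84, 1.4 and 2.27 CPM in CPT (log2 fold change 4.71 ± 0.55). With nearly 0 counts in CON, Inhbb passed the low-count filter only through libraries of other groups. Its call is a description. Gdf15, a stress-induced cytokine that suppresses appetite, measured 2.92, 2.2 and 1.86 CPM in CON and 8.23, 8.16 and 7.77 CPM in CPT (log2 fold change 1.80 ± 0.16, adjusted p = 1.51e-07). Fgf21, a fasting hormone of the liver, measured 6.29, 4 and 5.85 CPM in CON and 6.04, 5.11 and 8.53 CPM in CPT. Its groups overlapped, and it was not called in the count fit (log2 fold change 0.30 ± 0.20, adjusted p = 0.203). It was called higher on the log2(TPM + 1) scale (limma adjusted p = 0.00349). The count fit with no filter on low counts also called it higher (log2 fold change 0.38, edgeR adjusted p = 0.0374). Other members of the list were lower. Angptl6, an angiopoietin-like secreted protein, measured 5.96, 5.73 and 4.56 CPM in CON and 1.02, 0.996 and 1.04 CPM in CPT (log2 fold change -2.41 ± 0.23, adjusted p = 3.7e-07). Wnt9b, a Wnt ligand of liver endothelium, stood at 1.29, 1.26 and 1.29 CPM in CON and 0.283, 0.187 and 0.269 CPM in CPT. Ccn1, a matrix-associated signal protein, stood at 11.6, 13.1 and 14.2 CPM in CON and 2.3, 2.05 and 2 CPM in CPT. The endothelial and stellate marker sums, which fell over the same libraries, stand above.

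**Figure D1:**
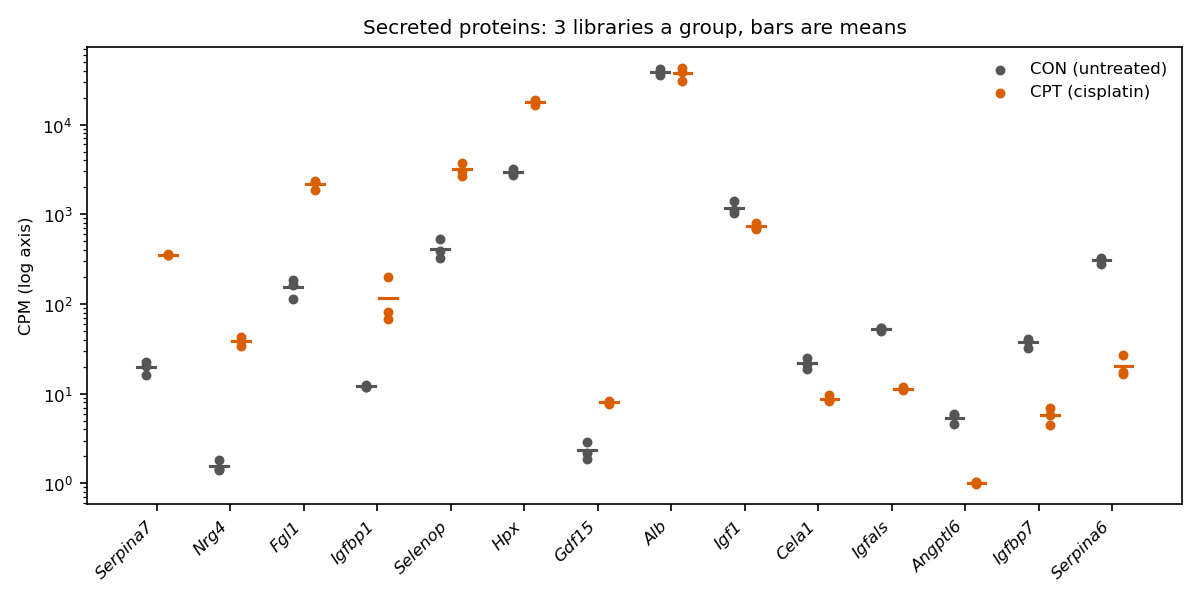
CPM on a log axis of 14 secreted protein genes in each of 3 CON and 3 CPT libraries, with horizontal bars at the group means (names chosen after their values were seen). Serpina7, Nrg4, Fgl1, Igfbp1, Selenop, Hpx and Gdf15 were higher in every CPT library than in any CON library, Alb overlapped, and the other 6 genes were lower in every CPT library.

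The share of all counts that came from secreted protein genes was larger in CPT. Genes with a deposited ontology term for the extracellular region or space, 2907 in all, took 19.4% ± 2.57 of the counts in CON and 35.0% ± 2.24 in CPT (mean ± SD, n = 3). The mitochondrial share was smaller in the same libraries. Among counts that were not mitochondrial, nor from nuclear copies of mitochondrial genes, the same genes took 34.5% ± 0.383 in CON and 43.2% ± 0.774 in CPT. The groups did not overlap on either denominator, and the exact two-sided permutation p was 0.1, the smallest that 3 libraries against 3 can give. By number of genes the same set did not lean upward: of 924 extracellular genes tested 310 were called higher and 361 lower, and their median log2 fold change was -0.07. The lists of secretory machinery took 0.855% ± 0.0165 of the counts that were not mitochondrial in CON and 1.10% ± 0.0214 in CPT.

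Along the secretory pathway, genes of the early steps were higher in CPT and those of the Golgi glycosylation enzymes were not higher as a list. Of 22 SRP and translocon genes tested, 18 were called higher, 2 lower and 2 were not called, with a median log2 fold change of 1.09. Among 17 signal peptidase and OST genes, 14 were called higher, 0 lower and 3 were not called, with a median of 0.89. Of all 183 secretory genes tested, 108 (59.0%) were higher and 27 (14.8%) lower, with a median of 0.44. The same count on the log2(TPM + 1) scale was 145 higher and 4 lower, with a median of 0.90 against 0.29 for all genes.

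Sec61a1, which forms the channel itself, measured 75.7, 71.1 and 80.3 CPM in CON and 138, 120.1 and 151 CPM in CPT (log2 fold change 0.85 ± 0.10, adjusted p = 3.9e-06). Sec61b, another subunit, measured 36.4, 37.2 and 32.1 CPM in CON and 77.1, 77.8 and 84.4 CPM in CPT (log2 fold change 1.18 ± 0.09, adjusted p = 3.77e-08). Neither gene's groups overlapped. Srp72, a protein of the signal recognition particle, measured 28.8, 30 and 27.3 CPM in CON and 82.9, 89.5 and 94.5 CPM in CPT (log2 fold change 1.63 ± 0.09, adjusted p = 7.26e-10). Tram2, a translocon-associated protein, measured 5.17, 4.99 and 4.45 CPM in CON and 19.1, 16.8 and 22.1 CPM in CPT. It had the largest rise of this list (log2 fold change 1.99 ± 0.13, adjusted p = 3.01e-09). Against these rises, Sec61a2, the second form of the channel subunit, measured 1.85, 3.14 and 3.27 CPM in CON and 1.31, 1.28 and 0.923 CPM in CPT (log2 fold change -1.23 ± 0.33, adjusted p = 0.00429). Sec62, an accessory factor of translocation, measured 85.5, 90.1 and 103 CPM in CON and 68.7, 63.6 and 56.2 CPM in CPT (log2 fold change -0.56 ± 0.10, adjusted p = 0.00019). On the log2(TPM + 1) scale Sec62 was 1.19 higher in CPT, so its direction depended on the scale. Ssr1, a subunit of the translocon-associated complex, was not called at 126, 105 and 145 CPM in CON and 134, 116 and 116 CPM in CPT. Its direction also depended on the scale, since on log2(TPM + 1) it was called 0.52 higher (limma adjusted p = 0.00139). Spcs1, a subunit of signal peptidase, measured 3.43, 4 and 3.6 CPM in the CON libraries and 11.7, 23 and 33.2 CPM in the CPT libraries. Its CPT libraries were spread out and all lay above CON (log2 fold change 2.61 ± 0.28, adjusted p = 1.25e-06). Ostc and Dad1, subunits of OST, had log2 fold changes of 1.83 ± 0.11 and 1.58 ± 0.20. Srp54c, one of near-identical Srp54 copies that can share reads, had a log2 fold change of 1.54 and is uncertain.

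The sugar chain attached by OST is assembled on a lipid from nucleotide sugars. Of 38 genes of this assembly and its trimming, 19 were called higher, 6 lower and 13 were not called, with a median log2 fold change of 0.33. Pgm3, which makes the precursor of the amino sugar donor, measured 3.71, 3.1 and 6.25 CPM in CON and 20.2, 18.8 and 19.8 CPM in CPT (log2 fold change 2.20 ± 0.18, adjusted p = 5.35e-08). Gmppb, which makes the mannose donor, measured 6.58, 5.1 and 5.29 CPM in CON and 15.8, 16.7 and 25 CPM in CPT (log2 fold change 1.77 ± 0.17, adjusted p = 2.79e-07). The 2 phosphomannomutase genes, whose enzymes prepare mannose for the same pathway, went in opposite directions. Pmm1 measured 1.41, 2.24 and 0.901 CPM in CON and 3.96, 7.04 and 4.88 CPM in CPT (log2 fold change 1.76 ± 0.28, adjusted p = 5.84e-05). Pmm2 measured 56.6, 49.2 and 59.1 CPM in CON and 32, 27.7 and 29.2 CPM in CPT (log2 fold change -0.89 ± 0.10, adjusted p = 2.61e-06). In the Golgi list, of 39 genes tested 10 were higher, 12 lower and 17 were not called, with a median of -0.18. On the log2(TPM + 1) scale this median was 0.33, against 0.29 over all genes. St3gal5, the sialyltransferase that makes the ganglioside GM3, stood apart at 14.4, 17.3 and 14.2 CPM in CON and 117, 102 and 143 CPM in CPT (log2 fold change 2.98 ± 0.13, adjusted p = 6.26e-11). Fut8, which adds the core fucose of N-glycans, measured 1.18, 2.16 and 2.08 CPM in CON and 0.53, 0.467 and 0.308 CPM in CPT (log2 fold change -2.04 ± 0.38, adjusted p = 0.000247).

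Of 32 COPII and exit-site genes 21 were called higher, 5 lower and 6 were not called, with a median of 0.52. Of 35 tested genes of the COPI coat and cargo receptors, 26 were called higher, 2 lower and 7 were not called, with a median of 0.48. Sec13, a COPII coat protein that is also part of the nuclear pore, measured 27.9, 25.8 and 22.3 CPM in CON and 70.1, 66.4 and 75.3 CPM in CPT. Sec22b, a fusion protein of the same route, stood at 12.9, 9.66 and 9.51 CPM in CON and 31.3, 31.3 and 35.3 CPM in CPT. Arf4, a small GTPase of the Golgi, measured 42, 37.9 and 46.8 CPM in the CON libraries and 138, 140.0 and 178 CPM in the CPT libraries (log2 fold change 1.85 ± 0.12, adjusted p = 3.34e-09). Copb2, a COPI coat subunit, measured 28.2, 33.3 and 26.4 CPM in CON and 80.7, 87.2 and 96.7 CPM in CPT (log2 fold change 1.59 ± 0.11, adjusted p = 7.09e-09). Tmed3, a cargo receptor, stood at 5.73, 7.14 and 7.26 CPM in CON and 20.5, 20.9 and 26.6 CPM in CPT. Its family member Tmed1 was lower, at 10.2, 10.7 and 9.85 CPM in CON and 5.34, 4.76 and 4.96 CPM in CPT (log2 fold change -1.03 ± 0.12, adjusted p = 3.2e-06). Surf4, a receptor that carries lipoproteins and other cargo out of the endoplasmic reticulum, measured 124, 129.8 and 133 CPM in CON and 232, 217 and 257 CPM in CPT. Mcfd2, a subunit of the receptor for some coagulation factors, stood at 95.3, 107 and 104 CPM in CON and 162, 178 and 174 CPM in CPT.

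Promoters of these genes were searched for 4 short motifs of stress-response factors, on both strands and in windows from 250 bases before to 50 bases after a RefSeq start site (assembly GRCm38.p6). The motifs, which do not contain one another, were chosen after the counts of the lists were known. They were TGACGTGG, the core bound by XBP1 and ATF6, and TGATGCAAT, a composite C/EBP and ATF element. The other two were endoplasmic reticulum stress elements, ERSE (CCAAT, 9 bases of any kind, CCACG) and ERSE-II (ATTGG, 1 base of any kind, CCACG). TGACGTGG was in the windows of 0.944% of 9962 tested genes matched to a promoter. It was in those of 5 of 32 COPI and cargo receptor genes and 4 of 29 COPII genes. It was in 0 of 17 SRP and translocon genes and 0 of 13 signal peptidase and OST genes. ERSE was in the windows of 1 of 158 secretory genes matched (Alg12) and of 0.181% of all. ERSE-II was in 1 of 158 (Krtcap2) and 0.1% of all, and TGATGCAAT in 0 of 158 and 0.13% of all. The windows of Sec24d (chr3:123267246-123267545, plus strand) and Copb2 (chr9:98563481-98563780, plus strand), which were called higher, and of Gbf1 (chr19:46152308-46152607, plus strand), which was not, are shown to set the same letters beside different values. Capitals mark the match, read as CCACGTCA on the other strand in Copb2 and Gbf1.
Sec24d: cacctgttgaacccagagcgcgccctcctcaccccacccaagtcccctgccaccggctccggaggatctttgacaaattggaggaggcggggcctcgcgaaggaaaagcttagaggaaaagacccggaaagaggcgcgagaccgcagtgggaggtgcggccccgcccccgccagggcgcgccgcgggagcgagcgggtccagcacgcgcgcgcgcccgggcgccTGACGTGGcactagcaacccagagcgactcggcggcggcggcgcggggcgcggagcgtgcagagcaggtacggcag
Copb2: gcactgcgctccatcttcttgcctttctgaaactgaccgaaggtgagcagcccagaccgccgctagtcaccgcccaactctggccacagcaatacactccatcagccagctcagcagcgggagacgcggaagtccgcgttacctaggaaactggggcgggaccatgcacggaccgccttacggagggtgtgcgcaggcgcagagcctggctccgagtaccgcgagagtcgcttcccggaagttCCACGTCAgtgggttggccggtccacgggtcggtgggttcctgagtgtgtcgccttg
Gbf1: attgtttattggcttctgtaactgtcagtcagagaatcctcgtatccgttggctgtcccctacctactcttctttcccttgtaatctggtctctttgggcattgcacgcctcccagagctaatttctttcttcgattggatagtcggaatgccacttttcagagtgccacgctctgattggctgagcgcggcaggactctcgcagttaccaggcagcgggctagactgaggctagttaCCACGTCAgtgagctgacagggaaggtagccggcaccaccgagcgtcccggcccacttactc
Sec24d, a cargo-binding subunit of COPII, measured 33.9, 24 and 39.5 CPM in the CON libraries and 66.1, 59.5 and 61.5 CPM in the CPT libraries (log2 fold change 0.95 ± 0.14, adjusted p = 3.23e-05). Gbf1, which activates the small GTPases of the COPI coat, measured 20.9, 19.7 and 17.8 CPM in CON and 20.2, 20.2 and 23.7 CPM in CPT, with overlapping groups (log2 fold change 0.14 ± 0.11, adjusted p = 0.294). On the log2(TPM + 1) scale Gbf1 was called higher (limma adjusted p = 0.000458). Of the 8 genes of both lists that held the letters and were tested, Sec23a, Sec24d, Stx5a, Copb1, Copb2 and Arf1 were called higher, and Sec16b and Gbf1 were not called. A match is a description of the letters in the window and was not tested as a binding site.

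Translation factors of the cytosol were mostly higher in CPT, while repressors of translation were divided. Of 48 initiation factor genes tested, 32 were called higher, 5 lower and 11 were not called, with a median log2 fold change of 0.52. Among 23 elongation and termination genes, 17 were called higher, 1 lower and 5 were not called, with a median of 0.64. Eef1b2, the exchange factor that recharges elongation factor 1A, measured 21.4, 29.8 and 22.4 CPM in the CON libraries and 150.2, 166 and 190.3 CPM in the CPT libraries. The groups were far apart, and the gene had the largest rise of its list (log2 fold change 2.78 ± 0.13, adjusted p = 1.23e-10). Eef1a1, the abundant elongation factor that delivers charged tRNA, measured 1524, 1659 and 1537 CPM in CON and 2636, 3217 and 3382 CPM in CPT. Processed copies of Eef1a1 in the genome can share its reads. Eef2, the factor that moves the ribosome along the message, measured 212, 225 and 195 CPM in CON and 459, 567 and 672 CPM in CPT (log2 fold change 1.43 ± 0.13, adjusted p = 1.24e-07). Eif6, which keeps the large ribosomal subunit apart from the small one, measured 7.42, 7.65 and 5.97 CPM in CON and 24.4, 29.7 and 46.4 CPM in CPT (log2 fold change 2.25 ± 0.20, adjusted p = 1.11e-07). Eif2d, which acts in non-canonical initiation and ribosome recycling, measured 15.3, 18 and 15.2 CPM in CON and 51.1, 58.7 and 59.1 CPM in CPT (log2 fold change 1.79 ± 0.10, adjusted p = 8.75e-10).

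The initiation list also held falls. Eif4a2, one form of the helicase that unwinds the 5′ end of messages, measured 175, 166 and 185 CPM in CON and 93.2, 96.4 and 75 CPM in CPT (log2 fold change -0.99 ± 0.10, adjusted p = 7.66e-07). Eif4g3, a scaffold of the cap-binding complex, had a log2 fold change of -0.93 ± 0.12 and Eif5b, which joins the subunits, -0.88 ± 0.12. Of these, Eif5b was not called on the log2(TPM + 1) scale (limma adjusted p = 0.0622). Of 32 repressors and eIF2 kinases tested, 8 were called higher, 10 lower and 14 were not called, with a median of -0.07. Ddit4l, an inhibitor of the mTORC1 kinase that drives translation, measured 0.225, 0.393 and 0.45 CPM in CON and 7.74, 9.78 and 8 CPM in CPT. Its relative Ddit4 measured 5.45, 10.8 and 5.12 CPM in CON and 31.5, 32.9 and 29.3 CPM in CPT. Sesn2, another inhibitor of mTORC1 signalling, measured 5.62, 5.5 and 5.4 CPM in CON and 22.7, 19.6 and 22.9 CPM in CPT. All 3 genes were higher in every CPT library (log2 fold changes 4.55 ± 0.22, 2.10 ± 0.20 and 1.98 ± 0.11). Ddit4l would not have passed the low-count filter on its CON libraries alone. In the same list Cpeb4, a protein that binds the tails of messages, measured 50.6, 50.5 and 73.5 CPM in CON and 20, 21.6 and 16.5 CPM in CPT (log2 fold change -1.58 ± 0.14, adjusted p = 1.8e-07).

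Of 23 genes of cytosolic aminoacyl-tRNA synthetases and their partners, the enzymes that charge tRNA with amino acids, 13 were called higher, 6 lower and 4 were not called, with a median of 0.49. Dars, for aspartate, measured 5.45, 3.73 and 5.12 CPM in CON and 13.3, 16.5 and 16 CPM in CPT (log2 fold change 1.70 ± 0.14, adjusted p = 6.04e-08). Tars, for threonine, measured 22.9, 25.6 and 26.6 CPM in CON and 11.9, 11.5 and 9.92 CPM in CPT (log2 fold change -1.17 ± 0.10, adjusted p = 1.4e-07). On log2(TPM + 1) Tars was 0.14 higher in CPT and not called, below the median of 0.29 over all genes. Only the sign of its change depended on the scale. The letters of TGATGCAAT were in the windows of 2 of 16 synthetase genes matched, Iars and Aars. Iars, for isoleucine, was called higher at 6.69, 6.52 and 4.11 CPM in CON and 10.4, 14.7 and 14.9 CPM in CPT (log2 fold change 1.20 ± 0.17, adjusted p = 2.06e-05). Aars, for alanine, was not called at 125, 125 and 114 CPM in CON and 109.8, 103 and 115 CPM in CPT. It had a log2 fold change of -0.15 on counts and 0.43 on the log2(TPM + 1) scale. The 31 mitochondrial synthetases and translation factors were divided: 12 were called higher, 6 lower and 13 were not called, with a median of 0.02. Tufm, the mitochondrial elongation factor, measured 20.4, 20.7 and 17.4 CPM in the CON libraries and 54.7, 66.2 and 93 CPM in the CPT libraries (log2 fold change 1.87 ± 0.16, adjusted p = 7.95e-08). Fars2, the mitochondrial synthetase for phenylalanine, measured 13, 15.9 and 11.3 CPM in CON and 1.48, 2.15 and 2.08 CPM in CPT (log2 fold change -2.82 ± 0.19, adjusted p = 4.73e-09). Cdkal1, which modifies tRNA for lysine, measured 7.36, 5.57 and 5.12 CPM in CON and 0.601, 0.311 and 0.538 CPM in CPT (log2 fold change -3.64 ± 0.33, adjusted p = 1.72e-07). Fars2 and Cdkal1 span 608869 and 663929 bases of chromosome 13. Of 25 RNA polymerase III genes, whose enzyme transcribes tRNA, 11 were called higher, 3 lower and 11 were not called. Polr3d, a subunit of the enzyme, measured 2.08, 2.2 and 1.75 CPM in CON and 6.33, 8.78 and 8.38 CPM in CPT.

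**Figure D2:**
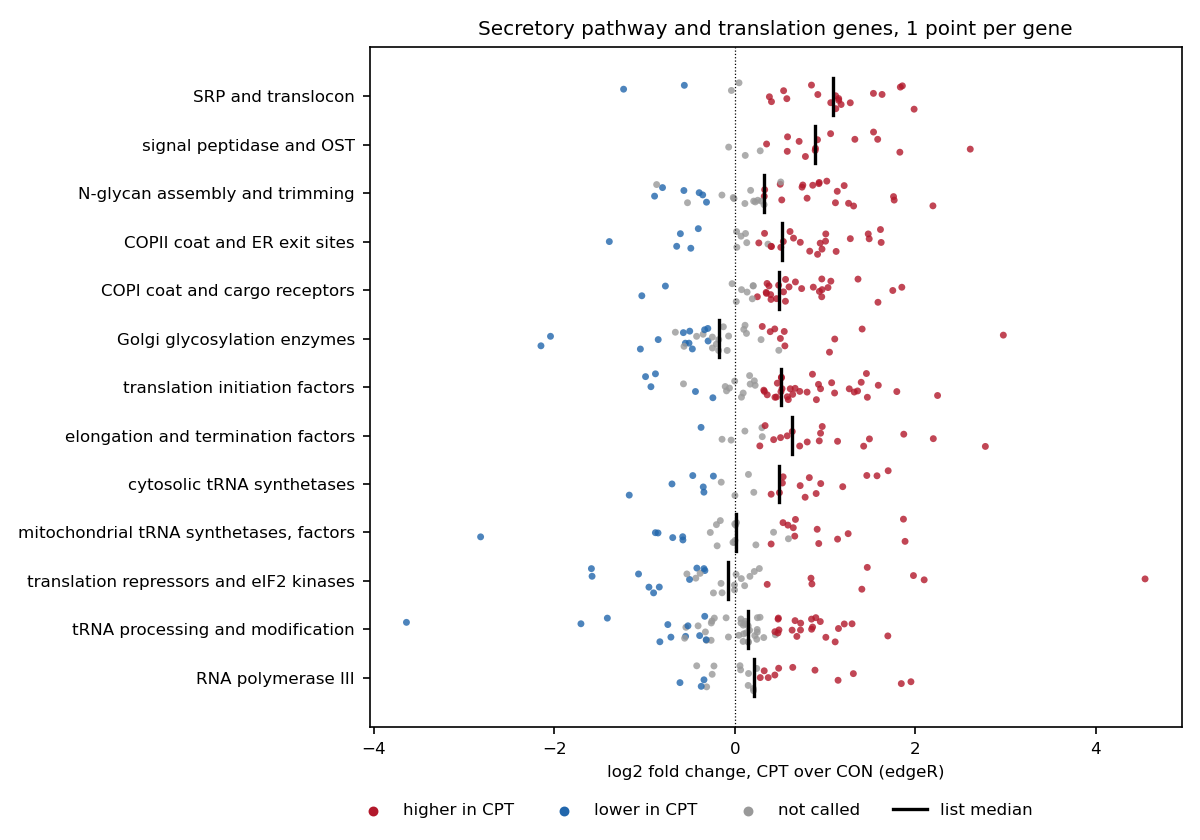
Log2 fold change (CPT over CON, edgeR) of each tested gene in 6 secretory and 7 translation lists, coloured by whether it was called, with a bar at the list median. The medians run from 1.09 for SRP and translocon genes to -0.18 for Golgi glycosylation enzymes, and single genes such as Ddit4l at 4.55 and Cdkal1 at -3.64 lie far from the rest of their lists.

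Membrane transporter genes changed about as often as other genes and as often up as down: of 318 tested, 104 (32.7%) were called higher and 107 (33.6%) lower, with a median log2 fold change of -0.01. Families differed in their counts. Of 13 sugar carriers 8 were higher and 1 lower (median 0.77), and of 20 vacuolar proton pump subunits 14 were higher and 3 lower (median 0.41). Of 28 organic ion carriers 4 were higher and 13 lower (median -0.35). Of 7 ABCC genes 1 was higher and 4 lower (median -1.35), and of 24 P-type ATPases 7 were higher and 13 lower (median -0.52). The median of the P-type ATPases was above 0 on the log2(TPM + 0.1) scale, at 0.14, against 0.51 over all genes.

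Among carriers of citrate and other acids, Slc13a5, which imports citrate from blood, measured 0.45, 0.707 and 0.619 CPM in the CON libraries and 32.9, 60 and 37.7 CPM in the CPT libraries. The gene was 71.6-fold higher (log2 fold change 6.16 ± 0.27, adjusted p = 5.27e-11), and no CPT library came near CON. Its relative Slc13a2, for dicarboxylates, measured 1.46, 1.92 and 2.53 CPM in CON and 0, 0.187 and 0.0769 CPM in CPT (log2 fold change -4.36 ± 0.58, adjusted p = 1.09e-05). Slc16a5, a monocarboxylate carrier, measured 1.24, 0.707 and 0.45 CPM in CON and 15.7, 12.5 and 20.7 CPM in CPT (log2 fold change 4.36 ± 0.26, adjusted p = 1.22e-09). Among amino acid carriers, 10 of 28 were higher and 5 lower. Slc3a1, the heavy chain of the cystine carrier, measured 8.94, 8.32 and 7.15 CPM in CON and 47.4, 54.8 and 53 CPM in CPT (log2 fold change 2.67 ± 0.12, adjusted p = 6.26e-11). Slc7a2, which imports arginine and other cationic amino acids, stood at 55.8, 61.1 and 54.2 CPM in CON and 193, 164 and 227 CPM in CPT. Slc43a1, a carrier of large neutral amino acids, stood at 2.87, 2.94 and 4.28 CPM in CON and 16.7, 15.6 and 16 CPM in CPT. Slc25a15, which brings ornithine into mitochondria for the urea cycle, measured 84.9, 90.4 and 84 CPM in CON and 328, 293 and 354 CPM in CPT (log2 fold change 1.91 ± 0.10, adjusted p = 3.15e-10). The 41 mitochondrial carriers as a list had 13 higher, 14 lower and a median of 0.01.

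Single organic ion carriers differed widely, within the 4 higher and 13 lower of their list. Slc22a28, an organic anion carrier, measured 8.15, 9.7 and 10.2 CPM in the CON libraries and 0.283, 0.125 and 0.384 CPM in the CPT libraries (log2 fold change -5.16 ± 0.35, adjusted p = 5.47e-09). Slc22a30, of the same family, measured 145, 139 and 184 CPM in CON and 33.5, 36.5 and 25.6 CPM in CPT (log2 fold change -2.29 ± 0.14, adjusted p = 1.33e-09). Slco1a1, which takes up bile acids and steroid conjugates, measured 209, 207 and 233 CPM in CON and 43.5, 71.5 and 34.2 CPM in CPT (log2 fold change -2.12 ± 0.20, adjusted p = 2.11e-07). Other carriers of the list were called higher or were not called. Slc22a27 measured 0.618, 0.746 and 0.0563 CPM in CON and 4.03, 3.46 and 4.11 CPM in CPT (log2 fold change 2.94 ± 0.37, adjusted p = 5.38e-06). Slc10a1, the main bile acid importer, measured 87.1, 106 and 86.5 CPM in CON and 117, 152 and 154 CPM in CPT (log2 fold change 0.60 ± 0.12, adjusted p = 0.000435). Slco1b2 was not called, with a log2 fold change of -0.01, but on log2(TPM + 1) it was called 0.57 higher (limma adjusted p = 0.00684). Slc22 genes of this group lie in a cluster of similar copies on chromosome 19 that can share reads. Of the export pumps, Abcb11, the bile salt pump, measured 279, 309.9 and 289.6 CPM in CON and 86.8, 108 and 88.5 CPM in CPT (log2 fold change -1.63 ± 0.11, adjusted p = 4.35e-09). Abcc6 stood at 123, 125 and 115 CPM in CON and 40.2, 37.3 and 38 CPM in CPT. Abcc3, which exports conjugates back to blood, measured 53.2, 60.2 and 51.4 CPM in CON and 14.3, 19.9 and 20.1 CPM in CPT (log2 fold change -1.60 ± 0.12, adjusted p = 2.54e-08), though it was not called on the log2(TPM + 1) scale (limma adjusted p = 0.107). Abcb1b, a multidrug export pump, and Abcc2, the pump of conjugates into bile, were higher, with log2 fold changes of 2.63 ± 0.45 and 0.65 ± 0.09.

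Ion and water transport changed by large factors in single genes. Atp6v1d, a subunit of the vacuolar proton pump, measured 7.64, 7.69 and 6.08 CPM in CON and 46.8, 54.2 and 58.6 CPM in CPT (log2 fold change 2.89 ± 0.12, adjusted p = 3.34e-11). Slc41a2, a magnesium carrier, measured 9.84, 9.34 and 12 CPM in CON and 89.1, 105 and 97.6 CPM in CPT (log2 fold change 3.23 ± 0.13, adjusted p = 1.89e-11). Slc41a3, of the same family, measured 0.393, 0.275 and 0.225 CPM in CON and 4.56, 2.65 and 4.73 CPM in CPT (log2 fold change 3.72 ± 0.33). Its CON libraries alone would not have passed the low-count filter, so its call is a description. Slc39a14, a zinc and iron importer, measured 83.3, 81.5 and 84.9 CPM in CON and 303, 322 and 299 CPM in CPT (log2 fold change 1.89 ± 0.09, adjusted p = 1.22e-10). Slc39a11, another zinc carrier, measured 8.94, 8.99 and 6.59 CPM in CON and 0, 0.187 and 0.0769 CPM in CPT (log2 fold change -6.40 ± 0.43, adjusted p = 5.4e-09). Its gene spans 405227 bases of chromosome 11, and its fall was the largest of all transporters named here. Aqp8, a water channel of the bile canaliculus, measured 108, 132 and 113 CPM in CON and 16.7, 13.3 and 13.8 CPM in CPT (log2 fold change -3.02 ± 0.12, adjusted p = 1.46e-11). The gap junction genes Gjb1 and Gjb2, which couple neighbouring hepatocytes, went in opposite directions. Gjb1 measured 472, 473 and 538 CPM in CON and 209, 226 and 261 CPM in CPT, and Gjb2 measured 118, 113 and 133 CPM in CON and 253, 290.5 and 300.1 CPM in CPT.

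**Figure D3:**
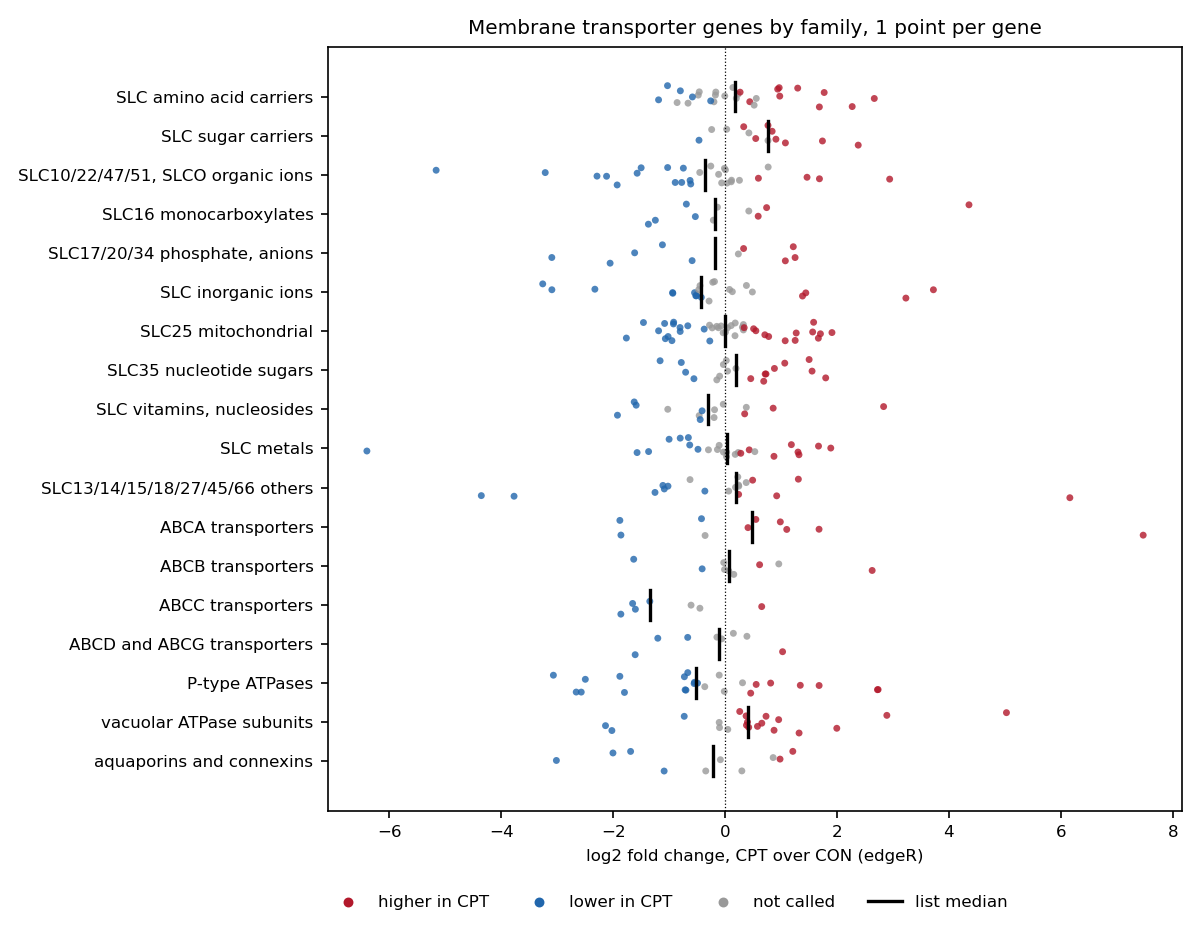
Log2 fold change (CPT over CON, edgeR) of each tested transporter gene in 18 families, coloured by call, with a bar at the family median. Each family spreads to both sides of 0, and the points of Abca17 (7.47) and Atp6v0a4 (5.03) have 0 counts in CON, so their position depends on the prior count of the fit.

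Long non-coding RNA genes, as annotated in GENCODE M21, were more often lower than higher in the count fit. Of 1099 tested, 190 (17.3%) were called higher and 386 (35.1%) lower, with a median log2 fold change of -0.41. By limma on log2(TPM + 1), the same classes had 326 higher and 210 lower, so which direction was more frequent depended on the scale. On that scale 48.5% of all tested genes were higher and 11.7% lower. Relative to all tested genes, a smaller share of the class was higher and a larger share lower on both scales. In the count fit it stood below the 11930 protein-coding genes (31.5% higher, 30.5% lower, median 0.00). By class, 113 of 332 lincRNA genes, 92 of 218 TEC genes (loci whose status GENCODE leaves to experiment) and 11 of 19 sense intronic genes were lower, with 69, 19 and 2 higher. Processed pseudogenes, in which reads may belong to a parent gene, had 81 of 262 higher and 49 lower. In each library, 590 to 607 long non-coding genes reached 1 CPM in CON and 432 to 494 in CPT. As a share of all counts these classes took 0.490% ± 0.0570 in CON and 0.591% ± 0.0300 in CPT. Of the counts that were not mitochondrial they took 0.873% ± 0.00987 and 0.732% ± 0.0711, so here the order turned with the denominator. Both differences had an exact permutation p of 0.1.

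Among lincRNA genes, Gm42047, which lies on chromosome 8 from 121833247 to 121841178 in GRCm38, measured 14, 10.8 and 14.7 CPM in CON and 211, 217 and 152 CPM in CPT. It is 3.7 kb from the protein-coding gene Klhdc4, and its groups did not overlap (log2 fold change 3.89 ± 0.18, adjusted p = 1.12e-10). Gm47939, on chromosome 10 from 25899279 to 25903916, measured 1.01, 1.53 and 1.91 CPM in CON and 21.6, 22.6 and 17.1 CPM in CPT (log2 fold change 3.78 ± 0.21, adjusted p = 5.77e-10). On the falling side, Gm31583, on chromosome 16 from 24085083 to 24090089, measured 32.5, 34.3 and 33.4 CPM in CON and 2.05, 2.9 and 1.88 CPM in CPT (log2 fold change -3.86 ± 0.16, adjusted p = 3.25e-11). Gm36041, on chromosome 10 from 122386892 to 122435033, measured 13.9, 17 and 20.2 CPM in CON and 0.919, 0.654 and 0.5 CPM in CPT (log2 fold change -4.61 ± 0.24, adjusted p = 3.96e-10). Gm13775, a processed transcript on chromosome 4 from 61783123 to 61801286, measured 12.3, 11.9 and 20.8 CPM in CON and 0.636, 0.654 and 0.346 CPM in CPT (log2 fold change -4.74 ± 0.29, adjusted p = 1.63e-09). It is 0.9 kb from the major urinary protein gene Mup19, which had a log2 fold change of -2.05. The functions of these loci are not described in the files.

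Of 49 well known long non-coding RNAs listed, 22 were tested, and of these 1 was called higher, 11 lower and 10 were not called. The 1 called higher, Trp53cor1, had 0 counts in CON and passed the low-count filter only through libraries of other groups. It is described below with the genes on from 0. The 2 most abundant members were nuclear RNAs. Malat1, of nuclear speckles, measured 96.8, 114 and 131 CPM in CON and 159, 137 and 106 CPM in CPT (log2 fold change 0.23 ± 0.15, adjusted p = 0.182). Neat1, of paraspeckles, measured 95, 107 and 104 CPM in CON and 107, 149.5 and 74.8 CPM in CPT (log2 fold change 0.11 ± 0.17, adjusted p = 0.595). Both had overlapping groups and were not called. Both were called higher on the log2(TPM + 1) scale and in the count fit without CPT replicate 3 (log2 fold changes 0.39 and 0.34). Malat1 was also called higher in the count fit with no filter on low counts (log2 fold change 0.32, edgeR adjusted p = 0.0132). The imprinted RNAs Meg3, Rian and Dio3os, which lie on chromosome 12 between the positions 109541001 and 110278172, were all low. Meg3 measured 0.899, 1.26 and 0.732 CPM in CON and 0.459, 0.187 and 0.0384 CPM in CPT. Rian stood at 1.69, 0.471 and 1.07 CPM in CON and 0.106, 0.311 and 0.0769 CPM in CPT, and Dio3os at 0.674, 0.981 and 1.01 CPM in CON and 0, 0.187 and 0.0384 CPM in CPT. All 3 were lower in every CPT library, with log2 fold changes of -2.06 ± 0.55, -2.59 ± 0.59 and -3.41 ± 0.64. Their CPT libraries alone would not have passed the low-count filter. These falls, which are among the 11, therefore have the same limit as the rise of Trp53cor1. Rian was not called on the log2(TPM + 1) scale (limma adjusted p = 0.0664). Of 17 tested host genes of small nucleolar RNAs, which guide the modification of ribosomal RNA, 5 were higher, 6 lower and 6 were not called. Snhg15 measured 1.74, 1.96 and 1.97 CPM in CON and 8.9, 8.28 and 6.42 CPM in CPT (log2 fold change 2.05 ± 0.19, adjusted p = 2.11e-07). Gas5 measured 8.26, 8.52 and 8.89 CPM in CON and 14.2, 16.5 and 13.1 CPM in CPT (log2 fold change 0.77 ± 0.12, adjusted p = 4.21e-05). Snhg11 measured 2.64, 1.61 and 2.03 CPM in CON and 0.495, 0.841 and 0.654 CPM in CPT (log2 fold change -1.63 ± 0.32, adjusted p = 0.000395). Of 22 small structural RNA genes 5 were tested, of which 0 were higher and 3 lower, with Scarna2 at 1.12, 2.36 and 1.46 CPM in CON and 0.53, 0.28 and 0.192 CPM in CPT.

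Antisense genes, 2958 in the table, were tested in 306 cases, of which 59 were called higher, 100 lower and 147 were not called. Their median log2 fold change was -0.40. By limma on log2(TPM + 1), 96 were higher and 62 lower, where 48.5% of all tested genes were higher and 11.7% lower. Relative to all tested genes, a smaller share of antisense genes was higher and a larger share lower on both scales. The labels do not say whether the library or the counting kept strand, so reads of an antisense gene and of its partner on the other strand cannot be told apart where they overlap. For 248 antisense genes the overlapping partner was tested too. Both were called in 91 of these pairs, of which 54 went the same way (23 both higher, 31 both lower), 18 had the antisense gene lower and the partner higher, and 19 had the opposite. Spearman's rho of the paired log2 fold changes was 0.16 over 248 pairs, a description across genes of the same libraries.

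Of 25 antisense genes with at least 90% of their exon bases inside exons of the partner, 6 were higher, 10 lower and 9 were not called. The partner was called too for 13 of them, of which 7 went the same way (5 both higher, 2 both lower), 5 had the antisense gene lower and the partner higher, and 1 had the opposite. The 4 with the largest falls did not fall with their partners. Gm42846, on chromosome 5 from 34173887 to 34174887 inside exons of Mxd4, a repressor of MYC targets, had 204, 226 and 276 counts in CON and 0 in every CPT library. Mxd4 itself measured 28, 27.4 and 25.5 CPM in CON and 24.2, 23.6 and 26.3 CPM in CPT and was not called on counts (log2 fold change -0.13 ± 0.09, adjusted p = 0.249). On the log2(TPM + 1) scale it was 0.66 higher in CPT. Gm45507, on chromosome 7 from 138890964 to 138894675 inside Bnip3, a mitochondrial protein of mitophagy, had 114, 37 and 181 counts in CON and 0 in CPT. Bnip3 measured 107, 101 and 112 CPM in CON and 220.2, 280.4 and 258 CPM in CPT (log2 fold change 1.25 ± 0.10, adjusted p = 4.89e-08). Gm17134, on chromosome 10 from 79863937 to 79864434 inside Ptbp1, a splicing regulator, had 47, 29 and 70 counts in CON and 0 in CPT. Ptbp1 had a log2 fold change of 0.47 ± 0.10. Gm47544, on chromosome 9 from 46270035 to 46271365 inside Apoa5, an apolipoprotein that acts on plasma triglyceride, measured 41.9, 24.4 and 34.7 CPM in CON and 0.353, 0 and 0 CPM in CPT. Apoa5 measured 678, 705 and 711 CPM in CON and 1121, 1233 and 1149 CPM in CPT (log2 fold change 0.74 ± 0.09, adjusted p = 6.24e-06). CON_2 was the lowest CON library for all 4 antisense genes on the CPM scale, and the 3 with 0 counts in CPT also had 0 in the AT3 libraries.

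In some other pairs both genes went the same way. Gm45774, on chromosome 8 from 94170748 to 94173412, which shares exon bases with the metallothionein gene Mt2, measured 0.281, 0.275 and 0.225 CPM in CON and 44.3, 32.7 and 24.2 CPM in CPT (log2 fold change 6.98 ± 0.30). Its CON libraries alone would not have passed the low-count filter, so its call is a description. Mt2 measured 1.12, 1.65 and 0.676 CPM in CON and 3057, 2679 and 2671 CPM in CPT. Gm10680, on chromosome 9 from 46242621 to 46243529 inside exons of Apoa4, measured 0, 0 and 0.225 CPM in CON and 11, 5.51 and 16.6 CPM in CPT. Apoa4 measured 232, 274 and 244 CPM in CON and 8397, 5759 and 10323 CPM in CPT. Hectd2os, on chromosome 19 from 36614052 to 36705641, which overlaps Hectd2, was the most abundant of the named antisense genes in CON. It measured 63.2, 66.7 and 76.6 CPM in CON and 3.43, 2.4 and 1.23 CPM in CPT (log2 fold change -4.86 ± 0.22, adjusted p = 7.84e-11). Hectd2 was lower at 0.506, 1.57 and 1.41 CPM in CON and 0.389, 0.249 and 0.308 CPM in CPT. Hectd2 was not called on the log2(TPM + 1) scale. Ctcflos, on chromosome 2 from 173110818 to 173133204, rose from 1.41, 2.51 and 2.2 to 23.5, 14 and 20.7 CPM (log2 fold change 3.22 ± 0.21, adjusted p = 4.47e-09), but its partner Ctcfl was not called (log2 fold change 0.94, edgeR adjusted p = 0.0672).

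**Figure D4:**
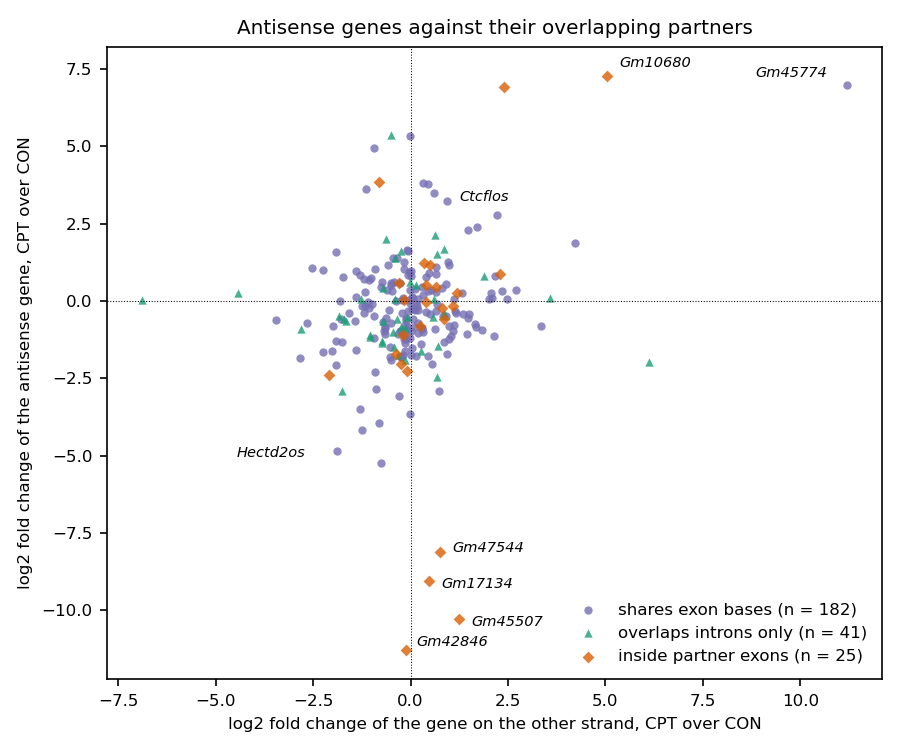
Log2 fold change (CPT over CON, edgeR) of 248 antisense genes against that of the overlapping gene on the other strand, with marks for 3 arrangements of the pair. Gm42846, Gm45507, Gm17134 and Gm47544 lie far below 0 beside partners between -0.13 and 1.25. The first 3 have 0 counts in CPT, so their depth on the axis depends on the prior count of the fit.

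Genes at 0 counts in all CON libraries with at least 10 counts in each CPT library numbered 20, of which 11 are protein-coding, 4 pseudogenes, 3 lincRNA, 1 processed transcript and 1 antisense. They were chosen by these values and are described with no test, each fold being a lower bound against 3 counts over the CON group. For scale, 224 genes had 0 counts in CON and a count in each CPT library. Cela2a, a pancreatic elastase, had 111, 100 and 155 counts in CPT, at least 86.2-fold above CON. The 12 exocrine pancreas markers summed to 0.0562 to 0.196 CPM in CON and 3.77 to 6.34 CPM in CPT, of which Cela2a itself was the larger part. Of the 12, 6 (Cela3b, Prss2, Try4, Cpa1, Cpb1 and Pnlip) were at 0 in all 6 libraries. Amy2a5, a pancreatic amylase, stood at 0.0562, 0 and 0 CPM in CON and 0.742, 0.623 and 0.384 CPM in CPT (log2 fold change 4.80 ± 0.79). Spink1, a trypsin inhibitor of pancreatic juice, was another of the 20 genes, with 20, 29 and 21 counts in CPT. Of 36 genes listed with pancreatic digestive enzymes, 31 had too few counts and 5 were tested. Of these, 3 (Cela2a, Amy2a5 and Spink1) were higher, 1 was lower and 1 was not called. The 3 higher ones had 0 or nearly 0 counts in CON and passed the low-count filter only through libraries of other groups. Their calls are a description and no test of the list. Cela1, the lower one, an elastase that liver itself expresses at a higher level, measured 21.5, 25.2 and 18.6 CPM in CON and 8.41, 9.62 and 8.34 CPM in CPT (log2 fold change -1.31 ± 0.12, adjusted p = 1.99e-07). Cela1 was not called on the log2(TPM + 1) scale (limma adjusted p = 0.358). Ckmt1, a mitochondrial creatine kinase, had 35, 73 and 92 counts (at least 47.1-fold), and Sec14l5, of a family of lipid-binding proteins, 110, 134 and 80 (at least 76.3-fold). Got1l1, similar to an aspartate aminotransferase, had 32, 49 and 24 (at least 24.7-fold), and Abca17, an ABC transporter, 20, 19 and 32 (at least 16.7-fold).

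Among the non-coding genes that were on from 0, Gm30173, a lincRNA on chromosome 3 from 52516964 to 52550219, had 56, 52 and 65 counts in CPT, at least 40.7-fold above CON. Its nearest protein-coding gene, 163.7 kb away, is the transcription factor gene Foxo1, with a log2 fold change of 0.81. Gm26569, a processed transcript on chromosome 16 from 29907519 to 29946754, had 18, 41 and 30 counts. Trp53cor1, a lincRNA on chromosome 17 from 29057430 to 29079179 that p53 is known to induce, had 17, 22 and 25 counts. It lies 11.8 kb from the cell cycle inhibitor gene Cdkn1a, which had a log2 fold change of 4.68, and was chosen after its values were seen. The processed pseudogene Rpl15-ps3 had the highest bound, at least 111-fold, but its 90, 31 and 350 counts were uneven and its reads can belong to its parent gene. The AT3 libraries, which did not enter the choice, had a count in all 3 for 16 of the 20 genes, with at least 10 counts in all 3 for 15. Cela2a had 245, 158 and 168 counts there and Gm30173 182, 136 and 95.

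Genes at 0 counts in all CPT libraries with at least 10 in each CON library numbered 9, the 3 antisense genes given above and 6 protein-coding genes. For scale, 159 genes had 0 counts in CPT and a count in each CON library. Of the 6 protein-coding genes, 4 are described here, and Naaladl2 spans 1346160 bases. Naaladl2, a peptidase-like protein, had 27, 60 and 45 counts in CON (at least 62.3-fold lower in CPT). Ntm, a cell adhesion protein, had 33, 43 and 43 (at least 56.2-fold). Smyd3, a methyltransferase, had 11, 31 and 11 counts, and Wdpcp, a ciliary planar polarity protein, had 15, 18 and 14. In AT3 5 of the 9 had no count in any library and the others had at most 3. Over all tested protein-coding genes, the share called lower was 25.4% of 2921 genes that span under 10 kb and 69.0% of 216 genes that span over 300 kb, where the median log2 fold change was -1.28. The named members Fars2, Cdkal1 and Slc39a11 belong to the longest class.

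**Figure D5:**
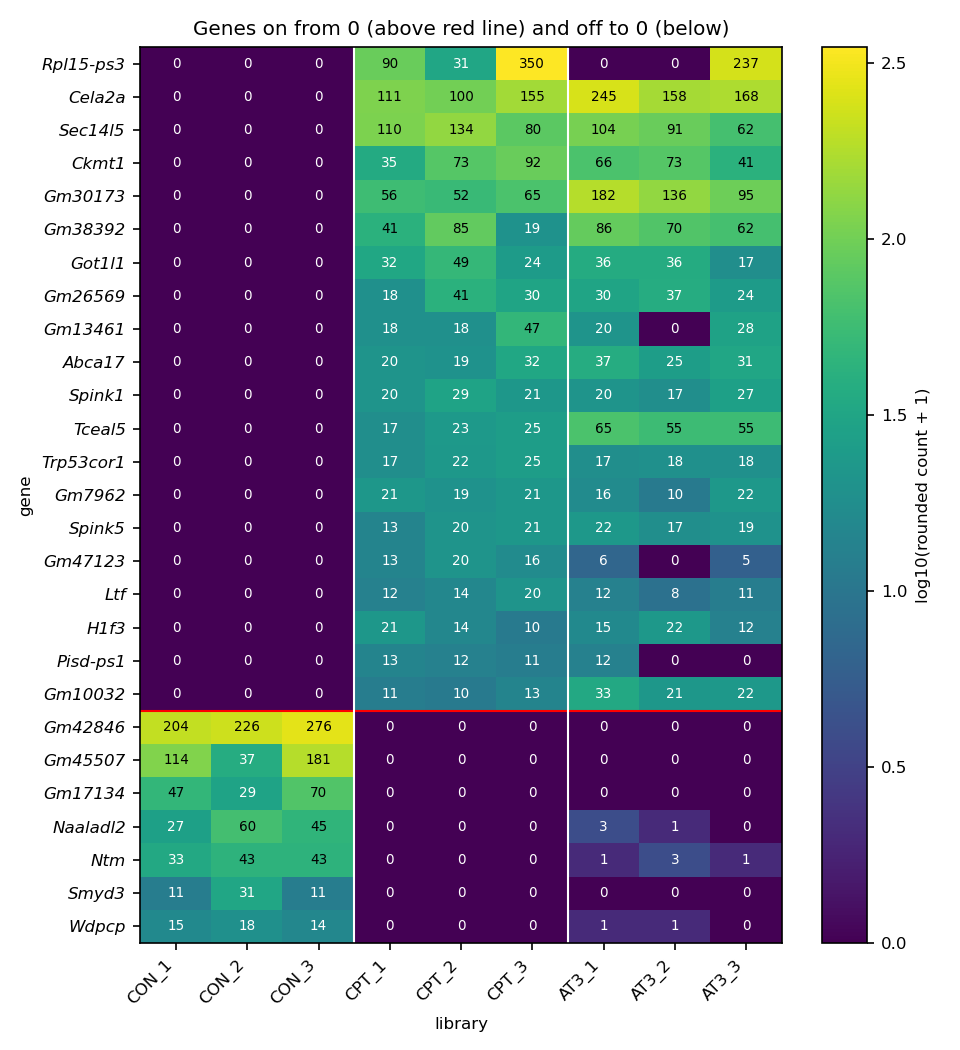
Rounded counts in all 9 libraries of the 20 genes at 0 in CON with at least 10 counts in each CPT library (above the red line) and 7 of the 9 genes with the opposite pattern (below it), coloured by log10(count + 1). The AT3 libraries are shown beside them, and 15 of the upper 20 genes have at least 10 counts in all 3.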

How the data were processed

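Per the labels' protocols, liver RNA came from a column kit and libraries from a SMARTER mRNA kit, and strand is not stated. Estimated counts and TPM, which are scaled to gene length and a fixed library total, were deposited by the authors per gene. No label names an aligner or counter, and of GRCm38, mm10 and GRCm39, listed in the submitters' processing notes, none has a role given. In each library 7.96% to 9.55% of the deposited estimated counts were not whole, and they were rounded. Other columns of per-sample values numbered 0. Totals were 21485021 to 28480479.

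Counts were scaled by TMM (factors 0.726 to 1.13) and tested in edgeR 4.0.16 (R 4.3.3), with its group-wise low-count filter, a quasi-likelihood model over the 9 libraries (1 term a group) and Benjamini-Hochberg adjustment over 13686 genes at 0.05. Standard errors follow from the F statistic. The fit was tested on simulated data in which only a small part of the genes changed. These data differ from that setting, so the simulation does not test the scaling used here. Alternatives were DESeq2 1.42.0, its size factors in edgeR, limma 3.58.1 on log2(TPM + 1) and log2(TPM + 0.1), no filter, the 6 libraries alone, a log2 fold change minimum of 1, leaving out mitochondrial and the 10 most abundant genes, the replicate block, and each library left out. Replicates of a group differed by more than sampling noise. Shares of counts were compared with exact permutation tests, and intervals of counting error were not needed for them. Coordinates, biotypes and overlaps come from GENCODE M21 (GRCm38), which held 98.1% of tested genes, and promoters from RefSeq (GRCm38.p6).

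The members, the 37 gene lists and the tests were chosen with earlier results of these data known. The rule for named genes takes up to 3 rises and 3 falls per list among called members with a group mean of at least 1 CPM and no overlap, the 2 most abundant members, up to 8 rises and falls per non-coding class, and the 10 switched genes with the highest bounds. Which of them are printed, and the partners and other genes named outside it (among them Ttr, Fgb, Serpina1c, Amy2a5, Spink1, Sec61a1, Sec61b, Srp54c, Sec13, Sec24d, Gbf1, Eef2, Iars, Gdf15, Fgf21, Slco1a1, Slc10a1, Meg3 and Dio3os), were chosen after their values were seen. So were the 4 motifs, the ontology class of extracellular genes, the 90% limit for antisense genes inside partner exons, the list of nuclear copies of mitochondrial genes and the rule by which a list median counts as turned. Ontology classes for translation and membrane transport were also looked at and are not reported. The list of inorganic ion carriers was corrected after a first look because its pattern had taken in 2 other families. Some results for single genes are not reported here.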

Additional observations from a re-analysis of the deposited data

Results flagged for a closer look

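The AT3 libraries did not enter the choice of the 20 genes with 0 counts in CON and at least 10 in each CPT library, and 16 of these genes had a count in all 3 AT3 libraries, above the level of 0 in CON. The other 4, Rpl15-ps3, Gm13461, Gm47123 and Pisd-ps1, had 0 counts in at least 1 AT3 library.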

How the results depend on the processing

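The total of 8326 called genes moved by over 1.5 times only with a minimum log2 fold change of 1, while TPM moved the split between higher and lower. With log2(TPM + 1) 6631 genes were higher and 1604 lower, and with log2(TPM + 0.1) 6665 and 1582. Non-coding genes were 326 higher and 210 lower, or 330 and 202, and antisense genes 96 higher and 62 lower, or 96 and 56. With a minimum log2 fold change of 1, 3960 genes were called, 1774 higher and 2186 lower. On the scales with 1 and 0.1 added, the median log2 fold change was 0.90 and 1.002 for secretory machinery, 0.57 and 0.75 for secreted proteins, 0.59 and 0.81 for translation, 0.30 and 0.49 for transporters and 0.29 and 0.34 for the non-coding lists, which turned from -0.36. It also turned for Golgi glycosylation enzymes (0.33 and 0.43), hepatokines (0.0668 and 0.0672), SLC16 carriers (0.21 and 0.38), phosphate and anion carriers (0.36 and 0.40), inorganic ion carriers (0.11 and 0.15), vitamin and nucleoside carriers (0.22 and 0.24), aquaporins and connexins (0.18 and 0.35) and, with 0.1 added, P-type ATPases (0.14). Over all tested genes the median was 0.29 and 0.51 on these scales. With 0.1 added, every list that turned stayed below that median of all genes. With 1 added, the Golgi list and the phosphate and anion carriers lay above it. Among named genes the TPM scale turned the log2 fold change of Sec62 (1.19 and 1.23), Ssr1 (0.52 and 0.56), Alb (0.54 and 0.54), Igf1 (0.0629 and 0.0630), Tars (0.14 and 0.17), Aars (0.43 and 0.45), Mxd4 (0.66 and 0.71) and Slco1b2 (0.57 and 0.58). The cause of these turns was not tested. Of these genes, Igf1 and Tars stayed below the median of all tested genes with 1 and with 0.1 added, and Aars with 0.1 added. With no filter on low counts the median was 0.0786 for secreted proteins, 0.33 for translation, -0.52 for pancreatic enzymes and -0.0845 for amino acid carriers. Without mitochondrial and the 10 most abundant genes it was 0.29 for translation and 0.0161 for transporters. Leaving out each library gave 0.40 to 0.51 for secretory machinery, 0.27 to 0.32 for translation and -0.0443 to 0.00576 for transporters. As shares of counts that were not mitochondrial, the difference of CPT from CON was -0.0113 percentage points for protein-coding, -0.0449 for antisense and -0.14 for long non-coding genes, turned from the shares of all counts. Of 131 named genes, 99 kept their direction and their side of the threshold under all alternatives.

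Genes on from 0 numbered 39 with at least 5 counts in each high library, 5 with at least 30, 52 with up to 3 counts in the low group and 77 by TPM, and genes off to 0 numbered 23, 3, 27 and 37. With each library left out they numbered 23 to 40 and 10 to 19. The most on genes, 40, came without CON replicate 2. The off genes rose from 9 to 16 without CPT replicate 1, 19 without CPT replicate 2 and 16 without CPT replicate 3. These counts are limited by depth, since fewer libraries must then be at 0.

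With the replicate number as a block, 4047 genes were higher and 4107 lower, 187 and 372 of the non-coding genes, and 57 and 96 of the antisense genes. The deviations of CON and CPT libraries with the same number correlated at -0.0378, -0.0227 and -0.0237, and 0 of 3 correlated best with their own number. No sign of pairing by number was seen, but 3 libraries a group are too few to exclude it.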
